A study of Mus musculus with 38 samples.

Results

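The genes described here encode the machinery that docks, primes, fuses and retrieves synaptic vesicles at the presynaptic terminal. They were chosen by name, as 29 listed SNARE, complexin, synapsin, active zone and recycling genes. The rule uses no measured value, but earlier results of these data were known when the genes were chosen. All 29 were found among the 57010 gene identifiers of the count table, and all 29 passed the filter on low counts in each fit, the lowest single count being 185 (Syn3). They fell into 4 roles, with 7 SNAREs and complexins, 12 vesicle membrane and vesicle-bound proteins, 7 active zone and priming factors, and 3 endocytic proteins.

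RNA was sequenced from the medial prefrontal cortex of 38 mice, 1 library per mouse. All animals carried SSTCre, which drives Cre recombinase in somatostatin interneurons. Controls carried SSTCre alone, and mutants (SSTCre:γ2f/f) also carried the floxed γ2 allele, so that the deletion was directed to a minority of the cells in the tissue. Chronic variable stress (CVS) lasted 21 days and tissue was taken 24 h after the last stressor, while non-stressed (NS) mice had no CVS. Among males there were 5 control mice without and 6 with CVS, and 3 mutants without and 4 with CVS. Females numbered 5 per combination of genotype and stress. Ages were not given in the sources used here. The comparisons asked how the interneuron mutation and the stress, alone and together, altered the transcripts of the release machinery.

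In the vesicle cycle, the vesicle SNARE synaptobrevin (VAMP) pairs with syntaxin 1 and SNAP-25 on the plasma membrane, and the zippering of the 3-protein bundle drives fusion, held and triggered with the help of complexins. RIM, Munc13, Bassoon, Piccolo and ELKS proteins organise the active zone and prime vesicles, synapsins tether the reserve pool, and dynamin, synaptojanin and amphiphysin retrieve the membrane. Several of these families divide between neuron types. In rodent cortex Vamp1 and Cplx1 are known for their enrichment in inhibitory interneurons, the fast-spiking parvalbumin cells among them, whereas Vamp2 and Cplx2 are widespread in excitatory neurons.

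Total counts ranged from 17.64 to 27.51 M per library (mean 21.06 ± 2.275 M, SD, n = 38), of which the 29 genes together took between 1.64% and 1.83%. Levels are given as CPM (counts of a gene per 1000000 counts) with mean ± SD, scaled by TMM factors of all 38 libraries, and they were not compared between the sexes, whose animals carry separate name series. Sex and animal series cannot be told apart. Gm12663, Ublcp1 and Ccng1, which differed between the genotypes, were looked at after their values had been seen. In male mutant CVS replicate 1, Gm12663 had 0 counts (an upper limit of 0.149 CPM at 3 counts, for counting error only) against 1.12 to 3.36 CPM in the other mutants and at most 0.426 CPM in controls. Ublcp1 stood at 33.6 CPM there, within the male control range of 31.9 to 41.9 CPM. In the other male mutants Ublcp1 ran from 24.1 to 29.8 CPM, below that range and below the 33.6 CPM of this library. Over the other mutants of both sexes it ran from 23.7 to 32.8 CPM, which overlaps the control range. Ccng1 stood at 91.6 CPM in the same library, within the range of 83.6 to 101.2 CPM of the other mutants. The pooled genotype calls named below are therefore given without this library as well. Cdhr1, a marker of the olfactory bulb, reached 25.02 and 26.58 CPM in male mutant NS replicates 2 and 3 and 16.0 CPM in male control CVS replicate 1. These 3 libraries were left out together in an alternative, which leaves replicate 1 as the only male mutant NS library. In bulk tissue, fewer cells of a type and less RNA per cell cannot be told apart.

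The 29 transcripts spanned more than 2 orders of magnitude per kilobase of exon. Snap25, which encodes the plasma membrane SNARE SNAP-25, was the highest in both sexes with 355.9 CPM per kb in males and 361.7 in females. Vamp2, the main vesicle SNARE of the forebrain, stood at 309.5 and 273.9, Dnm1, the neuronal dynamin, at 291.8 and 297.1, and Syp, the vesicle protein synaptophysin, at 280.5 and 298.7. The lowest in both sexes was Syn3, the third synapsin, at 0.992 and 1.35 CPM per kb. Sv2c, the SV2 isoform known from the basal ganglia, stood at 2.34 and 2.48, Unc13b, the Munc13-2 priming factor, at 2.68 and 2.26, and Vamp1, the second vesicle SNARE of the list, at 8.46 and 7.94. Vamp1 and the giant scaffolds of the active zone thus lay in the lower part of the order, and the 16 highest genes of males, down to Napb (79.3 CPM per kb), held no active zone gene. Lengths came from the exon union of a mouse annotation and include long 3′ ends that not every transcript uses, so the order between genes of close level is not firm.

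**Figure D1:**
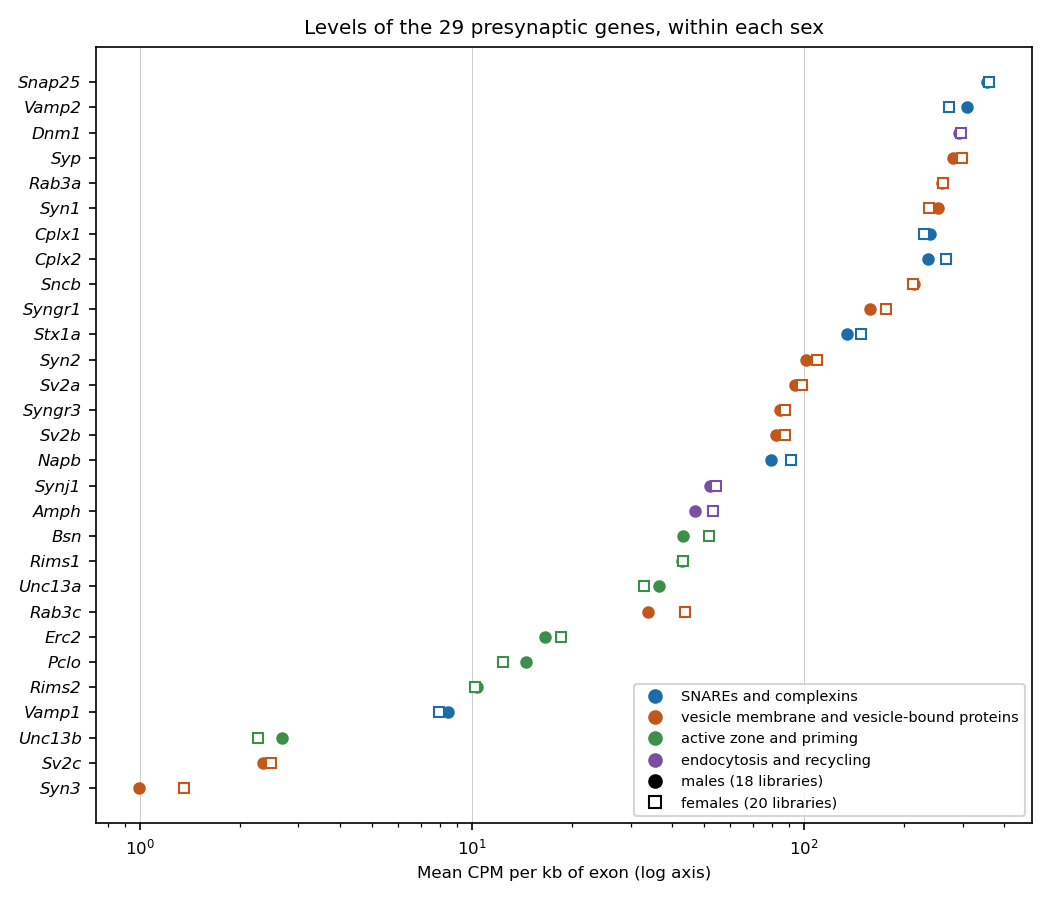
Mean level of each of the 29 presynaptic genes in CPM per kilobase of exon (horizontal log axis), with filled circles for the mean of 18 male and open squares for the mean of 20 female libraries, coloured by role. Snap25 is the highest and Syn3 the lowest in both sexes, and all 7 active zone genes lie below Napb.

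In several families a single member carried most of the signal per kilobase. Vamp1 made up 2.66 ± 0.395% of the Vamp1 and Vamp2 signal per kilobase in males (n = 18) and 2.82 ± 0.312% in females (n = 20). This share rests on exon unions of 10167 bases for Vamp1 and 3809 for Vamp2. All shares given here would move with other lengths, which their SDs do not cover. Unc13a, the main Munc13 of the forebrain, made up 93.2 ± 0.391% and 93.6 ± 0.410% of the Munc13 pair. Rab3a, the main GTPase of synaptic vesicles, made up 88.5 ± 1.07% and 85.7 ± 0.944% of the Rab3 pair, and Rims1 80.5 ± 1.14% and 80.8 ± 1.02% of the RIM pair. The complexins were balanced, with Cplx1 at 50.2 ± 1.58% in males and 46.2 ± 1.64% in females, as were Sv2a (52.6 ± 1.39% and 52.3 ± 1.49%) and Sv2b (46.1 ± 1.43% and 46.4 ± 1.52%). Among the synapsins, which coat the vesicle surface, Syn1 held 71.3 ± 1.19% and 68.2 ± 0.885%, Syn2 28.5 ± 1.18% and 31.4 ± 0.898%, and Syn3 0.279 ± 0.0324% and 0.389 ± 0.0570%. Exons of Syn1, Syn2, Syn3, Rab3a, Unc13a, Syp, Sv2b, Pclo, Erc2 and Synj1 overlap genes on the other strand. The strand setting of the counting is unknown here, and reads of these partners may be included, whereas Vamp1, Cplx1, Cplx2, Sncb and Snap25 have no such overlap.

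The release machinery varied little between animals of a group. The within-group SD on the log2 scale had a median of 0.0768 over the 29 genes in males, against 0.146 over the 17212 genes tested, and of 0.0693 in females, against 0.139 over 16435. The SD lay below the all-gene median for 26 of 29 in males and 27 of 29 in females. Vamp1 and Cplx1 were 2 of the 3 genes above it in males, at 0.175 and 0.174, whereas Vamp2 stood at 0.0468. High counts alone give a smaller spread, and the part of depth in this difference was not tested.

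The genotype comparison, mutant against control averaged over both sexes and both stress states, called a single member, the vesicle SNARE Vamp1. Vamp1 fell by 14.3% (log2 fold change −0.22 ± 0.0518, SE, 95% interval −0.33 to −0.12, adjusted p 0.0240, edgeR quasi-likelihood test, Benjamini-Hochberg (BH) adjusted over 17671 genes). This was 1 of 29 members, at a background of 1.09% of all genes called in that comparison, 0.753% lower and 0.34% higher. An unadjusted p under 0.05 was reached by 4 members (13.8%) and by 11.2% of all genes. The other 28 did not pass. Over all 29 there were 10 positive and 19 negative values, with a median of −0.01 against −0.0001 over all genes tested, and 28 of the 29 intervals lay within ±0.25. Of the mutant libraries, 16 of 17 stood below the mean of the control group of the same sex and stress state.

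Per library, Vamp1 stood at 88.0, 91.8, 89.1, 82.3 and 85.3 CPM in male control NS mice. Male mutant NS mice had 72.2, 91.3 and 74.3 CPM, so 2 of 3 lay below every unstressed control and the other lay within their range. Male control CVS mice spread from 78.9 to 119.8 CPM (median 93.8), and male mutant CVS mice had 76.7, 72.1, 70.6 and 83.9 CPM. In the stressed males 3 of 4 mutants thus fell under the lowest control. Female control NS mice had 75.0, 86.2, 101.7, 86.2 and 89.7 CPM, and female mutant NS mice 80.0, 68.1, 72.5, 86.7 and 68.9 CPM. Female control CVS mice had 80.7, 94.4, 90.5, 84.0 and 77.9 CPM, and female mutant CVS mice 79.5, 74.8, 79.9, 63.9 and 74.7 CPM. The groups overlapped in all 4 pairs, and the mutant mean was the lower in each.

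Taken pair by pair, none of the 4 genotype comparisons of Vamp1 passed on its own. The log2 difference was −0.14 ± 0.124 in unstressed males (adjusted p 0.952), −0.33 ± 0.110 in stressed males (0.507), −0.22 ± 0.0808 in unstressed females (0.426) and −0.20 ± 0.0809 in stressed females (0.620, edgeR, BH adjusted). The genotype effect did not differ detectably between the sexes (difference 0.02 ± 0.103, 95% interval −0.19 to 0.23) or with stress (interaction −0.08 ± 0.103, interval −0.29 to 0.13), and these intervals reach about as far as the effect itself. The share of Vamp1 in the VAMP pair was 2.75 ± 0.0997% in male control NS and 2.46 ± 0.218% in male mutant NS mice, and 3.05 ± 0.370% and 2.71 ± 0.264% in the same female groups. The call was lost without male mutant NS replicate 1 (−0.21, adjusted p 0.0593) or replicate 3 (−0.21, adjusted p 0.0751). It held without male mutant CVS replicate 1 (−0.22, adjusted p 0.0351). Without the 3 libraries high in Cdhr1 the value was −0.27, with replicate 1 alone in the male mutant NS group.

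**Figure D2:**
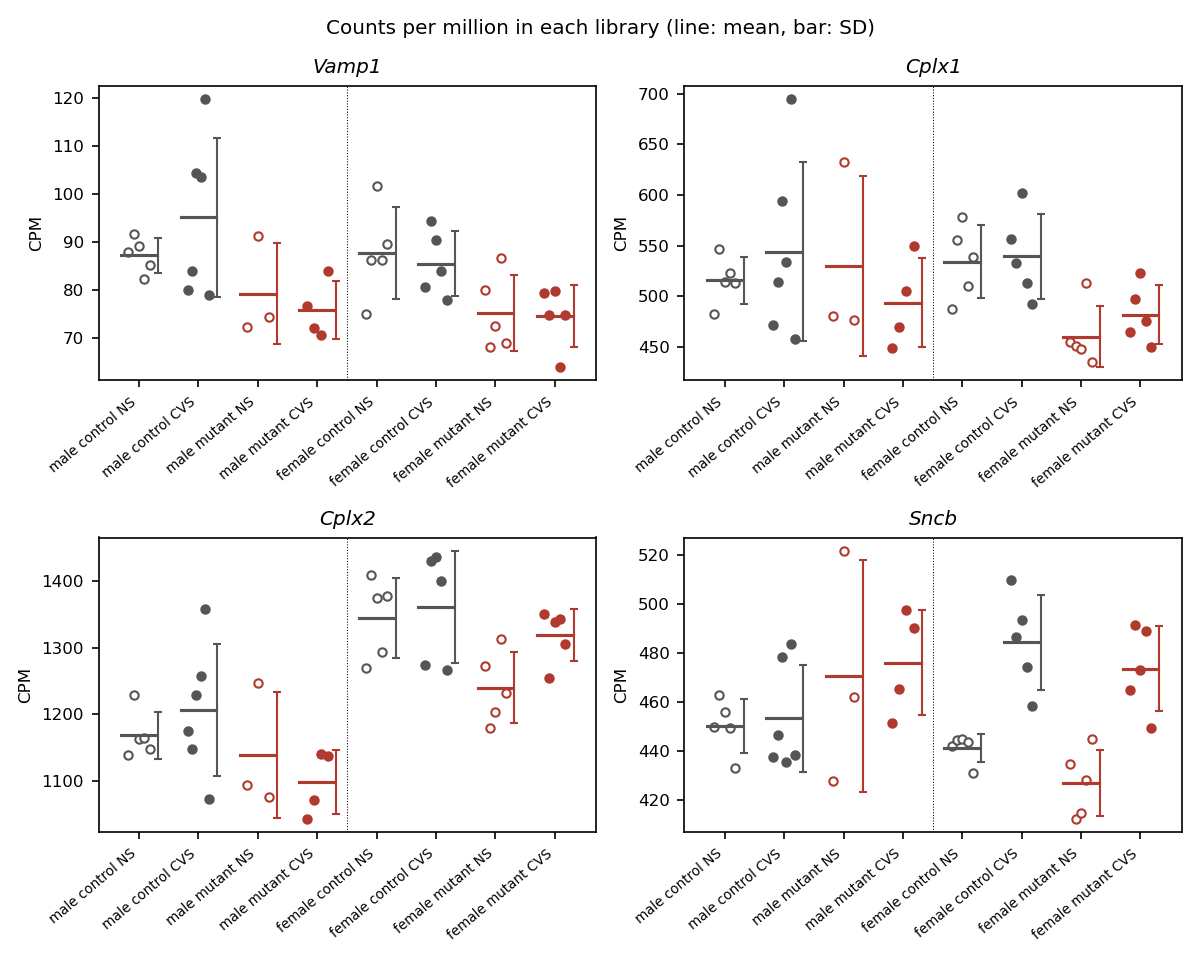
CPM of Vamp1, Cplx1, Cplx2 and Sncb in each of the 38 libraries by group (points, open for NS and filled for CVS, grey for control and red for mutant), with the group mean as a line and the SD as a bar. The vertical axes do not start at 0. The mutant mean of Vamp1 is the lower in all 4 pairs of groups. Female Sncb stands higher in every CVS mouse than in every NS mouse of the same genotype. The share of all genes that do so was not counted, and neither Sncb comparison passed.

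The complexins, small proteins that clamp and then promote SNARE-driven fusion, followed Vamp1 in the order of the genotype comparison and did not pass. Cplx2 was −0.08 ± 0.0241 (95% interval −0.13 to −0.04, adjusted p 0.0746) and Cplx1 −0.12 ± 0.0461 (interval −0.21 to −0.03, adjusted p 0.274, edgeR, BH adjusted). Cplx2 lay below the control mean in 16 of 17 mutant libraries and Cplx1 in 15 of 17. In unstressed females Cplx1 stood at 487.6, 556.1, 578.5, 510.5 and 538.5 CPM among controls and at 454.6, 451.1, 448.3, 512.7 and 434.9 CPM in mutants. Of the 5 female mutants 4 lay below every control and the other lay within the control range (log2 −0.21 ± 0.0551, adjusted p 0.138). In unstressed males Cplx1 did not share the direction, with 515.7 ± 23.2 CPM over 5 controls and 529.8 ± 88.7 over 3 mutants, whose values were 480.3, 632.2 and 476.9. Male mutant NS replicate 2, the one at 632.2 CPM, was also the highest of its group in Vamp1, Cplx2 and Sncb and is one of the 3 libraries high in Cdhr1. The sex difference of the Cplx1 genotype effect was −0.14 ± 0.0918 over all 38 libraries and did not pass (adjusted p 0.750). Without those 3 libraries, with replicate 1 alone in male mutant NS, the unstressed male value of Cplx1 turned to −0.11. The sex difference of Cplx1 was then −0.05.

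The promoters of Vamp1 and Cplx1 are shown because these were the 2 members with the lowest fitted genotype values. Each line gives the 250 bases before the annotated start on the gene's own strand, from RefSeq on GRCm38.p6, with capitals for the GC box GGGCGG on either strand. Vamp1 lies at chr6:125215331-125215580 (plus strand) and Cplx1 at chr5:108550028-108550277 (minus strand).
Vamp1: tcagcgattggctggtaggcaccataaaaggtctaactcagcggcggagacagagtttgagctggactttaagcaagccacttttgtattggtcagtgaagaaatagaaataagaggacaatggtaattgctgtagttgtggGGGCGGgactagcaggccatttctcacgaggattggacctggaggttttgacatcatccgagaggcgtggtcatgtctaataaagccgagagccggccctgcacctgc
Cplx1: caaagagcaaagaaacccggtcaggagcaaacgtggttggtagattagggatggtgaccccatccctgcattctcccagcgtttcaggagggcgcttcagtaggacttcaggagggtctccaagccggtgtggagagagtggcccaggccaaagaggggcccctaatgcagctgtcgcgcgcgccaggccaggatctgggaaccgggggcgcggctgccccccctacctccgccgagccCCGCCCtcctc
RefSeq windows of that length were at hand for 24 of 29 members, 30 windows in all. The GC box GGGCGG stood in 53.3% of these and in 32.7% of 32851 promoter windows of the genome, beside a median GC content of 61.0% against 52.4%. The cAMP response element TGACGTCA stood in 3.33% against 1.55%, the E-box CACGTG in 6.67% against 6.02%, and TATAAA in 6.67% against 12.4%. Neither printed window holds any of these last 3 motifs. The window of Cplx2, which is not printed, holds none of the motifs named here, the GC box included. The match is of letters alone.

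The remaining SNARE and vesicle genes stood close to 0 between the genotypes. Snap25 was −0.04 ± 0.0231 (adjusted p 0.532), and Vamp2, the partner of Vamp1 in the pair, was −0.02 ± 0.0189. In the active zone, Rims1, the RIM1 scaffold that ties calcium channels to vesicles, was −0.06 ± 0.0254 (adjusted p 0.319), and Unc13a was −0.04 ± 0.0228. Syn1 was −0.02 ± 0.0202, Sv2b 0.03 ± 0.0309, Bsn, the scaffold Bassoon, −0.0042 ± 0.0224, and Dnm1 0.0005 ± 0.0198, each by edgeR, BH adjusted. By role, 6 of 7 SNAREs and complexins, 6 of 12 vesicle genes, 6 of 7 active zone genes and 1 of 3 endocytic genes were negative, with medians of −0.04, −0.01, −0.03 and 0.0005.

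**Figure D3:**
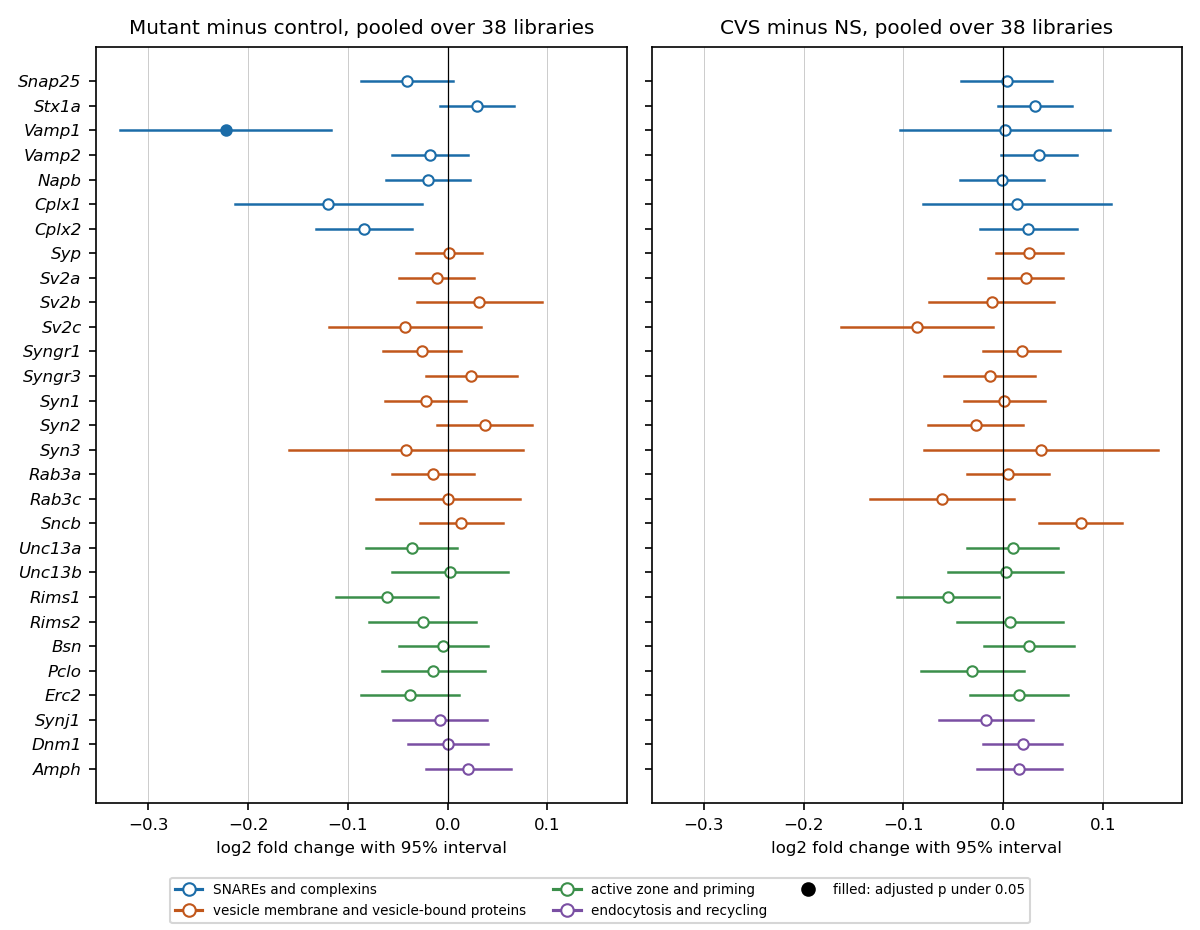
Log2 fold change (points) and 95% interval (lines) of each of the 29 genes for mutant minus control and for CVS minus NS, both averaged over all 38 libraries, coloured by role. Vamp1 in the genotype panel is the one filled point, meaning an adjusted p under 0.05, at −0.22, and all 29 stress intervals lie within ±0.25.

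Markers of other cells moved with the genotype comparison too. Sst, the neuropeptide of the targeted interneurons, rose (0.19 ± 0.0336, adjusted p 0.00143), the one call among 10 listed GABAergic markers, of which 7 were negative. Without male mutant CVS replicate 1 the Sst value was 0.20 (adjusted p 0.000401). Pvalb, named after its values had been seen, did not pass at −0.30 ± 0.0842 (adjusted p 0.0833). DESeq2 (adjusted p 0.0318, beside 1.87% of all genes called) and limma voom (0.0343, beside 1.18%) called it. So did 4 of the 38 runs that left out 1 library (edgeR, adjusted p 0.0244 to 0.0397). Those were the runs without male control CVS replicate 6, male mutant NS replicate 2, male mutant CVS replicate 4 or female control NS replicate 1. Pvalb stood at 32.7 ± 1.97 CPM in male control NS and 30.2 ± 7.93 in male mutant NS mice, and at 33.5 ± 8.72 and 25.7 ± 5.80 in the stressed males. The values were 32.7 ± 6.56 and 23.3 ± 3.48 in the unstressed females, and 31.73 ± 3.09 and 27.52 ± 2.09 CPM in the stressed females. Npy was −0.13 ± 0.0366 (adjusted p 0.0727), whereas Gad1, the GABA-synthesising enzyme, was −0.06 ± 0.0299 (adjusted p 0.476, edgeR, BH adjusted). The summed level of the 10 GABAergic markers had group means from 1291 to 1316 CPM in males and from 1232 to 1291 CPM in females.

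All 10 astrocyte markers were negative, with S100b (−0.15 ± 0.0275, adjusted p 0.00166) and Slc1a2 (−0.10 ± 0.0244, adjusted p 0.0354) called. Without male mutant CVS replicate 1 S100b stayed past the threshold (−0.14, adjusted p 0.00434) and Slc1a2 did not (−0.10, adjusted p 0.0540). Slc1a2 did not pass without the 3 libraries high in Cdhr1 either (−0.06, adjusted p 0.377). All 10 oligodendrocyte markers were negative with 0 called (median −0.14, Mog −0.24 ± 0.0679, adjusted p 0.0663, edgeR, BH adjusted), as were all 10 microglial (median −0.05) and all 10 endothelial and pericyte markers (median −0.08). General neuronal markers had a median of −0.01 and cortical glutamatergic markers of 0.02, with 0 called. The part of these markers in the values of Vamp1 and the complexins was not tested.

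Of the wider pathway, 79 other genes were listed, 78 were tested and 2 passed in the genotype comparison, against the same 1.09% of all genes. Dnm3, a dynamin of the endocytic list, rose (0.14 ± 0.0252, adjusted p 0.00112, edgeR, BH adjusted), from 122.0 ± 8.75 to 132.0 ± 6.26 CPM in unstressed females and from 131.8 ± 8.35 to 149.0 ± 6.82 CPM in unstressed males. Rph3a, the Rab3 effector rabphilin, fell (−0.09 ± 0.0220, adjusted p 0.0206), with 615.3 ± 18.8 to 568.0 ± 30.2 CPM in unstressed females and 613.4 ± 16.1 to 602.8 ± 3.70 CPM in unstressed males. The Rph3a call was lost without the 3 libraries high in Cdhr1 (−0.09, adjusted p 0.124) and without male mutant NS replicate 3 (adjusted p 0.0523). Without male mutant CVS replicate 1 Rph3a was −0.08 (adjusted p 0.0497) and Dnm3 0.14 (adjusted p 0.00141). By list, 0 of 17 tested SNARE regulators passed (Prrt2 −0.46 ± 0.159, adjusted p 0.184), 1 of 19 vesicle proteins and transporters, 0 of 18 active zone genes (Rims4 −0.06 ± 0.0321, adjusted p 0.473) and 1 of 24 endocytic genes. In the other 14 comparisons 0 of the 78 passed.

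Stress, CVS against NS averaged over sexes and genotypes, called 0 of 29 members, at a background of 0.017% of 17671 genes called. By the unadjusted p under 0.05, 3 members passed, or 10.3% against 9.37% of all genes. Sncb, which encodes β-synuclein, a vesicle-associated protein of the synuclein family, had the smallest p (0.08 ± 0.0207, 95% interval 0.04 to 0.12, adjusted p 0.155). Next came Sv2c (−0.09 ± 0.0379, adjusted p 0.480) and Rims1 (−0.06 ± 0.0254, adjusted p 0.503), by edgeR, BH adjusted. All 29 intervals lay between −0.16 and 0.16 on the log2 scale. Snap25 was 0.0035 ± 0.0227, Vamp1 0.00 ± 0.0516, Vamp2 0.04 ± 0.0189, Cplx1 0.01 ± 0.0460 and Dnm1 0.02 ± 0.0198.

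In females Sncb had the smallest p of the members in both stress comparisons and did not pass. Female control NS mice had 442.1, 444.8, 445.0, 443.9 and 431.1 CPM and female control CVS mice 509.6, 486.4, 493.4, 474.3 and 458.5 CPM. Female mutant NS mice had 435.0, 412.6, 415.0, 428.2 and 444.9 CPM and female mutant CVS mice 465.0, 491.4, 473.2, 489.1 and 449.6 CPM. In both genotypes every stressed female stood above every unstressed one. How many of all genes separate in this way was not counted, so this only describes the values above. The log2 differences were 0.13 ± 0.0337 in controls (adjusted p 0.226, background 0% of 16435 genes called) and 0.15 ± 0.0337 in mutants (adjusted p 0.203, background 0%), so neither passed in edgeR with BH adjustment. DESeq2 called both, with adjusted p of 0.0272 and 0.0215, where it called 0.217% of 12929 and 0.433% of 6239 genes that it gave an adjusted p.

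In males Sncb overlapped between stress states, at 450.2 ± 11.1 CPM in control NS (n = 5) and 453.5 ± 21.8 CPM in control CVS mice (n = 6), and at 470.6 ± 47.4 and 476.1 ± 21.5 CPM in the mutants (n = 3 and 4). The male differences were 0.01 ± 0.0423 and 0.02 ± 0.0533. The sex difference of the stress effect was 0.13 ± 0.0413 (95% interval 0.05 to 0.21) and did not pass (adjusted p 0.596, edgeR, BH adjusted). Across the 7 other settings this difference ran from 0.06 to 0.14, and across runs without 1 library from 0.09 to 0.16. The most abundant identifier of the table, which has no symbol in the annotation used, moved with stress in females as well, from 5.31 ± 0.229% to 6.55 ± 1.23% of counts in controls and from 4.80 ± 0.620% to 6.22 ± 0.759% in mutants. Leaving it and the mitochondrial genes out of the totals gave Sncb values of 0.13 in controls and 0.15 in mutants.

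Other members that led a stress comparison differed from group to group. In male controls, where 0.0116% of genes were called, Erc2, the active zone scaffold ELKS2, was 0.09 ± 0.0420 (adjusted p 0.658) and Syn3 0.20 ± 0.0947 (adjusted p 0.6715). In male mutants, with 0% called, Sv2c was −0.15 ± 0.0900 and Unc13b −0.09 ± 0.0684 (adjusted p 0.9997 for both). In female controls Rims1 stood at −0.13 ± 0.0448 (adjusted p 0.400) with 306.2 ± 2.80 CPM under stress against 334.4 ± 20.9 CPM without, Syngr1, a vesicle membrane protein, at 0.08 ± 0.0352 (0.508) and Pclo, the scaffold Piccolo, at −0.09 ± 0.0435 (0.547). In female mutants Rab3c stood at −0.12 ± 0.0467 (0.502), Cplx2 at 0.09 ± 0.0383 (0.556) and Napb, the neuronal α-SNAP relative that recycles SNAREs, at −0.09 ± 0.0398 (0.581, all by edgeR, BH adjusted). None of these 4 comparisons called a member. An unadjusted p under 0.05 was reached by 2 members in male controls (7.39% of all genes), 0 in male mutants (3.38%), 4 in female controls (8.72%) and 4 in female mutants (7.91%).

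Within each sex and stress state the genotype comparisons called 0 members, at backgrounds of 0.0174% (males without stress), 0.0523% (males under stress), 0.128% (females without stress) and 0.0243% (females under stress). The share of members with an unadjusted p under 0.05 was 0 of 29, 6 (20.7%), 3 (10.3%) and 5 (17.2%) in that order, beside 6.13%, 7.62%, 8.07% and 7.08% of all genes. In stressed males the 6 were Vamp1, Cplx2 (−0.14 ± 0.0505), Unc13b (−0.14 ± 0.0578), Erc2 (−0.11 ± 0.0449), Rims1 (−0.12 ± 0.0491) and, in the other direction, Stx1a, which encodes syntaxin 1A (0.08 ± 0.0364). The 4 stressed male mutants include replicate 1, whose Gm12663 and Ublcp1 lay in the range of male controls and whose Ccng1 did not. The share of 20.7% is not given without that library. In runs without 1 library the values ran from −0.38 to −0.25 for Vamp1, −0.17 to −0.097 for Cplx2 and 0.053 to 0.11 for Stx1a. Unc13b stood between 54.5 and 59.4 CPM in the 4 stressed male mutants, replicate 1 among them. The 6 stressed male controls stood between 60.1 and 68.0 CPM, without overlap. The share of all genes without overlap was not counted here either, and the adjusted p of Unc13b was 0.555 by edgeR, BH adjusted.

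In females the genotype values leaned downward, with 21 of 29 negative without stress (median −0.03 against 0.002 over all genes) and 24 of 29 negative under stress (median −0.04 against −0.0005). All 12 vesicle genes were negative in stressed female mutants, led by Syngr1 (893.8 ± 40.8 CPM in controls and 823.3 ± 16.9 CPM in mutants, log2 −0.12 ± 0.0352, adjusted p 0.484) and Syn1 (−0.09 ± 0.0376, adjusted p 0.620). Cplx1 (−0.16 ± 0.0550, adjusted p 0.571) and Napb (−0.10 ± 0.0398, adjusted p 0.615, edgeR, BH adjusted) led the SNARE group there. Marker lists leaned the same way in these 2 comparisons. Of 10 markers each, negative values numbered 9 without stress and 8 under stress for neurons in general, 7 and 7 for GABAergic neurons, 9 and 5 for astrocytes, 8 and 8 for oligodendrocytes, 9 and 9 for microglia, and 8 and 8 for endothelial cells and pericytes, with 0 called. Cortical glutamatergic markers had 5 of 11 negative in both. Of the 78 other pathway genes 36 were negative without stress and 50 under stress. The part of these markers in the female values was not tested. In males the counts of members were 10 of 29 negative without stress and 14 of 29 under stress. The 2 female comparisons share no library with each other, but each shares its groups with the stress comparisons.

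**Figure D4:**
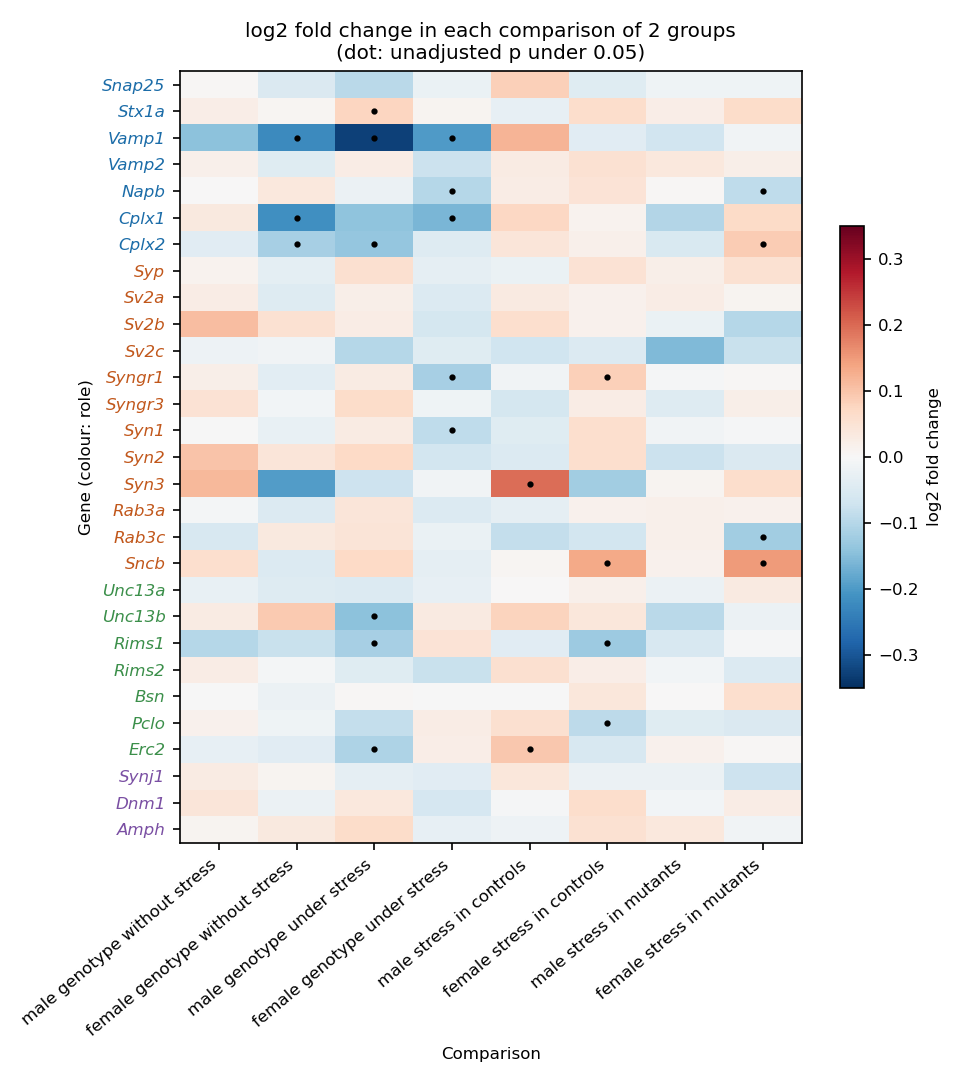
Log2 fold change of each of the 29 genes (vertical axis, label colour by role) in the 8 comparisons of 2 groups (horizontal axis), on a colour scale from −0.35 to 0.35, with a dot where the unadjusted p was under 0.05. Vamp1 is negative in all 4 genotype columns, and no cell passed the adjusted threshold of 0.05.

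Tests of differences between effects called 0 members. The interaction of genotype and stress called 0% of all genes in males, in females and pooled. An unadjusted p under 0.05 was reached by 0 members in males (4.18% of all genes), 1 in females (4% of all genes) and 1 in the pooled fit (4.96%). The smallest p among members belonged to Unc13b in males (−0.17 ± 0.0870, adjusted p 0.995) and in the pooled fit (−0.12 ± 0.0574, adjusted p 0.931), and to Napb in females (−0.14 ± 0.0562, adjusted p 0.9999). The sex difference of the genotype effect called 0.00566% of genes and gave 7 of 29 members (24.1%) an unadjusted p under 0.05, beside 8.01% of all genes. These were Syngr1 (−0.11 ± 0.0387, adjusted p 0.471), Sncb (−0.11 ± 0.0413, adjusted p 0.503), Vamp2, Dnm1, Syn2, Syp and, in the positive direction, Unc13b (0.12 ± 0.0575, adjusted p 0.621), by edgeR, BH adjusted. The 6 negative ones had lower genotype values in females than in males. Across the 7 other settings the difference ran from −0.11 to −0.03 for Sncb, −0.10 to −0.08 for Syngr1 and 0.08 to 0.12 for Unc13b. The sex difference of the stress effect called 0% of genes and gave 1 member, Sncb, an unadjusted p under 0.05, beside 7.18% of all genes. Nothing in the labels says that animals of a group came from separate litters, so the p-values measure the spread between these animals.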

How the data were processed

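Libraries were made from 400 ng of total RNA with a directional kit and read as 150-bp pairs at a planned depth of 20 M reads, per the labels' protocols. The authors deposited raw counts per gene identifier, and fastp 0.23.2, STAR 2.7.10b and featureCounts on GRCm39 are named in the submitters' processing notes. The annotation release and strand setting: not given in the sources used here. Symbols and exon lengths came from GENCODE vM21, which matched 52029 of 57010 identifiers, and promoter windows from RefSeq, GRCm38.p6. No 2 libraries of a group were identical (74 pairs).

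Genes were kept with filterByExpr (minimum count 10, minimum total 15) and tested on the counts as deposited with edgeR 4.0.16 (TMM factors, robust quasi-likelihood fit, R 4.3.3), with Benjamini-Hochberg adjustment over all genes tested and a threshold of 0.05. Each sex was fitted with its 4 groups, and pooled effects and sex differences came from a fit of all 8 groups. Values after ± are SDs for levels and standard errors for log2 fold changes. The fits were also run on counts simulated with the fitted spread and without outlying libraries, and the outcome is not reported here. Alternatives were size factors of DESeq2 type, DESeq2 1.42.0, limma 3.58.1 voom, no filter on low counts, 1 surrogate variable (sva 3.50.0), fits of only the groups compared, totals without the most abundant identifier and the mitochondrial genes, without 3 libraries high in Cdhr1, and leaving out each library in turn.

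Members and lists were chosen with earlier results of these data known. Named were every member that passed in a comparison, otherwise up to 2 with the smallest p in each direction, 10 fixed examples, other pathway genes past the threshold or up to 2 per list, and up to 2 markers per list with Cdhr1. Pvalb, Gad1, Gm12663, Ublcp1, Ccng1 and further members under an unadjusted p of 0.05 were named after their values were seen. Markers of striatum and of olfactory bulb other than Cdhr1, and some other items, are not reported here.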

Additional observations from a re-analysis of the deposited data

Results flagged for a closer look

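Of 203 combinations of gene and group with 4 to 6 libraries, 14 held 1 library that stood apart from the rest by Dixon's criterion. Chance alone gives about 1 in 20 such groups. No explanation of these values was tested.

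Among the SNAREs and complexins, Stx1a was 337.3 CPM in male control CVS replicate 2 (others 349.9 to 355.2) and 417.1 CPM in female mutant NS replicate 1 (others 375.6 to 384.3). Cplx1 was 512.7 CPM in female mutant NS replicate 4 (others 434.9 to 454.6), the one mutant of that group within the control range, and Cplx2 was 1229 CPM in male control NS replicate 2 (others 1139 to 1164).

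Among vesicle genes, Syp was 1457 CPM in female control NS replicate 5 (others 1553 to 1589), and Sncb was 431.1 CPM in the same library (others 442.1 to 445.0). Sv2b was 599.5 CPM in male control NS replicate 5 (others 671.3 to 686.1), and Amph, the endocytic amphiphysin, was 194.5 CPM there (others 212.9 to 216.3). Syngr1 was 824.1 CPM in female control CVS replicate 3 (others 899.4 to 928.7) and Syn1 736.1 CPM in male control CVS replicate 4 (others 822.8 to 863.6).

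Among active zone genes, Unc13b was 51.5 CPM in male control NS replicate 2 (others 61.4 to 62.8) and 48.2 CPM in female control CVS replicate 4 (others 51.3 to 52.0). Rims1 was 332.0 CPM in male mutant CVS replicate 4 (others 278.4 to 287.1), and Pclo was 285.9 CPM in male mutant CVS replicate 2 (others 325.0 to 330.7).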

How the results depend on the processing

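The Vamp1 genotype call kept its direction and its side of the threshold in all 7 other settings (−0.27 to −0.21, adjusted p 0.00373 to 0.0445). The setting without the 3 libraries high in Cdhr1 leaves replicate 1 alone in male mutant NS. Vamp1 was negative in all 38 runs without 1 library (−0.25 to −0.20) and past the threshold in 36 of them (adjusted p 0.0101 to 0.0430 in those). Counts of called members changed in these settings, and the cause was not tested. DESeq2 called 1 member each in female stress in controls and in mutants (Sncb both times) and in female genotype without stress (Cplx1), where it called 0.217%, 0.433% and 0.649% of all genes with an adjusted p. Without a filter on low counts, female genotype gave 2 without stress (Cplx1, adjusted p 0.00005048, and Vamp1, 0.0094) and 1 under stress (Cplx1, 0.04805), beside 0.365% and 0.0711% of all genes. Without the 3 libraries high in Cdhr1 pooled stress gave 1 (Sncb, 0.11, adjusted p 0.0142), beside 0.191% of all genes. Leaving out 1 library gave 0 to 1 in female stress in mutants (Sncb, without mutant CVS replicate 5, beside 0.0721% of all genes). The same held in female genotype without stress (Cplx1, without control NS replicate 1, beside 0.283%, or mutant NS replicate 4, beside 0.138%). Pooled stress also gave 0 to 1 (Sncb, without male mutant NS replicate 2, beside 0.0277%). In pooled genotype, leaving out 1 library gave 0 to 2. There Cplx2 was added without male control CVS replicate 6, male mutant NS replicate 2 or female control CVS replicate 5. Among the other pathway genes it gave 1 to 2.

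Over all genes, counts called ranged across the other settings from 93 to 299 for pooled genotype (193), 1 to 36 for pooled stress (3), 19 to 118 for female genotype without stress (21), 3 to 23 under stress (4), 5 to 43 for male genotype under stress (9), 0 to 11 without stress (3), 0 to 23 for male stress in controls (2), 0 to 8 in mutants (0), 0 to 51 and 0 to 36 for female stress in controls and mutants (0 each), 0 to 7, 0 to 5 and 0 to 3 for the male, female and pooled interactions (0 each), and 0 to 6 and 0 to 5 for the sex differences of stress (0) and genotype (1). Leaving out 1 library moved them too, from 101 (without male mutant NS replicate 3) to 233 for pooled genotype, 0 to 16 for pooled stress, 6 to 47 and 2 to 5 for female genotype without and under stress, 0 to 6 and 1 to 12 for male genotype without and under stress, 0 to 9 and 0 to 12 for female stress in controls and mutants, 0 to 3 for male stress in controls, and 0 to 4 and 0 to 2 for the sex differences of stress and genotype.

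Small differences that did not pass changed sign. Without the 3 libraries high in Cdhr1 these were, in male genotype without stress, Rims1 (0.0063) and Cplx1 (−0.11), in the pooled interaction Rims1 (−0.0091), in pooled genotype Bsn (0.014) and Dnm1 (−0.020), and in pooled stress Sv2b (0.0066), Unc13a (−0.025) and Syn1 (−0.0006). In pooled stress Vamp1 was −0.0013 with limma voom, −0.0009 without the filter and −0.014 with 1 surrogate variable, Syn1 −0.0013 without the filter and −0.0007 with the surrogate variable, and with the latter Snap25 −0.0037 and Cplx1 −0.017. Without 1 library, values ranged from −0.0081 to 0.091 for Amph in male stress in mutants and from −0.11 to 0.10 for Cplx1 in male genotype without stress. They ranged in pooled genotype from −0.013 to 0.0058 for Bsn and from −0.0091 to 0.010 for Dnm1. In pooled stress the ranges were −0.018 to 0.029 for Vamp1, −0.0058 to 0.0086 for Syn1, −0.0045 to 0.013 for Snap25, −0.0065 to 0.049 for Cplx1, −0.0043 to 0.023 for Unc13a and −0.028 to 0.014 for Sv2b. Of 232 group levels, 50 moved by over 1 SD with raw totals, by at most 4.38%. No paired analysis was possible because the replicate numbers were given in the order of the deposit and pair no animals.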

Other observations

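Across animals of the same group, the level of Vamp1 moved with some members and markers and not with others. The values are Pearson's r over the deviations of log2 CPM from the group means in all 38 libraries, given as a description with no test, since pairs of these genes had been looked at before the list was run. The values share their library's scaling factor, and whether dissection moves them together was not tested. Among the 28 other members r ran from −0.576 (Syn2) to 0.785 (Cplx1) with a median of −0.0462, and 16 were negative. Cplx1, Cplx2 (0.763) and Snap25 (0.646) were the 3 members above 0.5, whereas Vamp2 had 0.0625.

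Among the 10 GABAergic markers r ran from −0.0395 (Sst) to 0.760 (Pvalb) with a median of 0.344. Pvalb, Slc32a1, the vesicular GABA transporter (0.604), and Gad1 (0.541) were the 3 above 0.5, and Gad2 stood at 0.232. Spearman's rho was 0.706 for Cplx1 and 0.667 for Pvalb. Without the 2 libraries farthest in Vamp1, r was 0.702 for Cplx1, 0.676 for Cplx2, 0.677 for Pvalb, 0.508 for Slc32a1 and 0.422 for Gad1. In the 18 male libraries r was 0.874 for Cplx1, 0.839 for Cplx2 and 0.882 for Pvalb, and in the 20 female libraries 0.642, 0.651 and 0.569. Gad1 had 0.747 in males and 0.178 in females, and the difference between the sexes was not tested.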
